A study of Homo sapiens with 12 samples.

Results

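The 10 genes described here encode the actin and myosin II machinery of the cell cortex and the transcription factor that controls much of it: ACTB, ACTG1, MYH9, MYL9, MYL12A, MYLK, TPM1, VCL, FLNA and SRF. They were chosen by symbol, with no measured value in the rule, and all 10 were found among the 26125 rows of the deposited table. All 10 also passed the filter of a mean of at least 1 FPKM (fragments scaled to transcript length and library size), which left 12928 genes for testing.

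RNA was sequenced from Caco-2 cells, which derive from a human colorectal adenocarcinoma and take on features of enterocytes when confluent, in 4 groups of 3 libraries. Every group had 21 days of culture on transwell inserts to differentiate and was exposed in HEPES-buffered transport buffer. The combined group received ochratoxin A (OTA), a food-borne mould toxin, at 15 µmol/L together with Bacillus subtilis CW14, the OTA group received OTA alone at 15 µmol/L, the CW14 group received the bacterium alone, and the control group received neither. Agents were given to the apical chamber, and the time of exposure is not given in the labels. The study's title concerns the epithelial barrier and the toxicity of OTA, with CW14 as a probiotic. Because this is a tumour-derived line without the other cells of the gut wall, the values describe epithelium alone. The labels do not say that the 3 libraries of a group came from separate cultures, so p-values measure only the spread between these libraries, which may be technical.

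In enterocytes a ring of actin and non-muscle myosin II runs under the apical junctions, and its tension is raised when myosin light chain kinase phosphorylates the myosin regulatory light chain. This ring is linked to junction proteins and is best known in this tissue for controlling paracellular permeability. SRF binds a DNA element called the CArG box in the promoters of many actin, actin-binding and immediate early genes. It does so with either the MRTF cofactors, which are held in the cytoplasm by unpolymerised actin, or the ternary complex factors, which answer to MAP kinase signalling.

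The CArG box was searched in the RefSeq promoter windows of the members, each running from 250 bases before to 50 bases after an annotated start (build GRCh38.p14). Windows were found for 8 of the 10 members. The box was present in windows of 4 of them, ACTG1, MYLK, FLNA and SRF, and its letters were not in the windows of MYH9, MYL12A, TPM1 and VCL. Across all 35116 windows of the same length, 454 (1.29%) held it on either strand. That share counts windows, while the members are counted as genes, and MYL12A has 3 windows and SRF 2. The members were also chosen as actin, myosin and SRF genes. The box is its own reverse complement in form, so both strands were covered by the same search. The 110 bases before the start are shown for these 4 genes because these are the members with a box. Each of them was called in at least 1 comparison below. So were MYH9, MYL12A and VCL, whose windows lacked it, while TPM1 was not. The box is in capitals and each sequence is read 5′ to 3′ on the gene's strand.
ACTG1: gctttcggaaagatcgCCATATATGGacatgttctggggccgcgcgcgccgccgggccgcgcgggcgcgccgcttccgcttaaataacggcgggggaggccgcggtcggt
MYLK: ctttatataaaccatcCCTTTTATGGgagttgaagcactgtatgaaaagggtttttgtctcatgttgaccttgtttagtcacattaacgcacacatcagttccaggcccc
FLNA: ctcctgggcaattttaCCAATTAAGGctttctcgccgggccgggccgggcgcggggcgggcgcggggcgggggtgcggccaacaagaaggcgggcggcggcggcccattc
SRF: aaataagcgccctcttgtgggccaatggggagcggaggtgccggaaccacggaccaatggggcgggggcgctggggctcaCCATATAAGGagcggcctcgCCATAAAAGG
The windows lie at chr17:81512800-81512909 on the minus strand for ACTG1, chr3:123620549-123620658 on the minus strand for MYLK, chrX:154374635-154374744 on the minus strand for FLNA and chr6:43171159-43171268 on the plus strand for SRF. In ACTG1, MYLK and FLNA the box begins 94 bases and ends 85 bases before the start. SRF holds 2 boxes, from 30 to 21 and from 10 to 1 bases before the start. A match describes letters in the window and does not show that SRF was bound there. MYLK has 1 window, and which of its transcripts begins there was not examined. Its box is therefore not shown to lie in the promoter of the transcript that encodes the kinase.

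The libraries agreed within groups at Pearson correlations across genes of 0.871 to 0.961 in the combined group and 0.943 to 0.959 in the other groups. Combined replicate 3 stood apart. Its residual SD on the log2 scale was 0.588, against 0.305 to 0.424 in the other 11 libraries, and its relative depth was 0.470 of control replicate 1, against 0.642 to 1.60 in the others. Its deviation from the other libraries of its group rose with transcript GC content (Spearman correlation 0.426 across 12575 genes, which are not independent replicates). The members' called differences in the combined group, and the main values of the related genes, are therefore given with and without it. Of 13 epithelial markers 11 passed the filter, including EPCAM, CDH1, VIL1, KRT8, KRT18 and KRT19, whereas CDX1 and SI did not exceed 0.185 and 0.148 FPKM. The summed epithelial markers ranged from 5385 to 8322 FPKM in the combined group, 5481 to 6013 with OTA, 5504 to 5773 with CW14 and 6223 to 6984 in control. Smooth muscle and fibroblast markers summed to 10.0 to 20.5 FPKM over all libraries, with ACTA2 and MYH11 at no more than 0.147 and 0.112 FPKM and COL1A2 and DCN listed at 0 in all 12. The 3 of these 12 markers that passed the filter were SMTN, at 4.23 to 12.1 FPKM, LUM, at 1.94 to 6.26 FPKM, and COL1A1, at 0.980 to 4.91 FPKM. Of the immune markers, PTPRC was listed at 0 in all 12 libraries while CD68 lay between 49.4 and 127 FPKM, and the endothelial markers VWF and CDH5 did not exceed 0.115 and 0.220 FPKM while PECAM1 lay between 0.588 and 1.73 FPKM. In such bulk samples fewer cells of a kind and less RNA per cell cannot be told apart.

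In control libraries the level per length ran in the order ACTG1, ACTB, MYL12A, MYL9, VCL, MYH9, TPM1, MYLK, SRF and FLNA. The ranges of VCL, MYH9 and TPM1 overlapped, as did those of MYLK and SRF. Both cytoplasmic actins were among the most abundant transcripts, at ranks 41 and 42 of 12928 by the mean of all libraries, and MYL12A was at rank 146. SRF, at rank 4792, was the least abundant member by that mean. The order changed in the combined group, with ACTB above ACTG1, VCL below MYH9 and TPM1, and FLNA above SRF and MYLK. MYLK was last there, close to SRF, whose range it overlapped. These changes were not particular to that group. With OTA alone mean VCL, at 39.7 FPKM, was also below MYH9 and TPM1, at 50.1 and 48.7 FPKM. FLNA, at 25.5 FPKM, was above MYLK and SRF there too. With CW14 alone mean ACTB was above mean ACTG1, at 2440 against 2383 FPKM, with overlapping ranges.

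**Figure D1:**
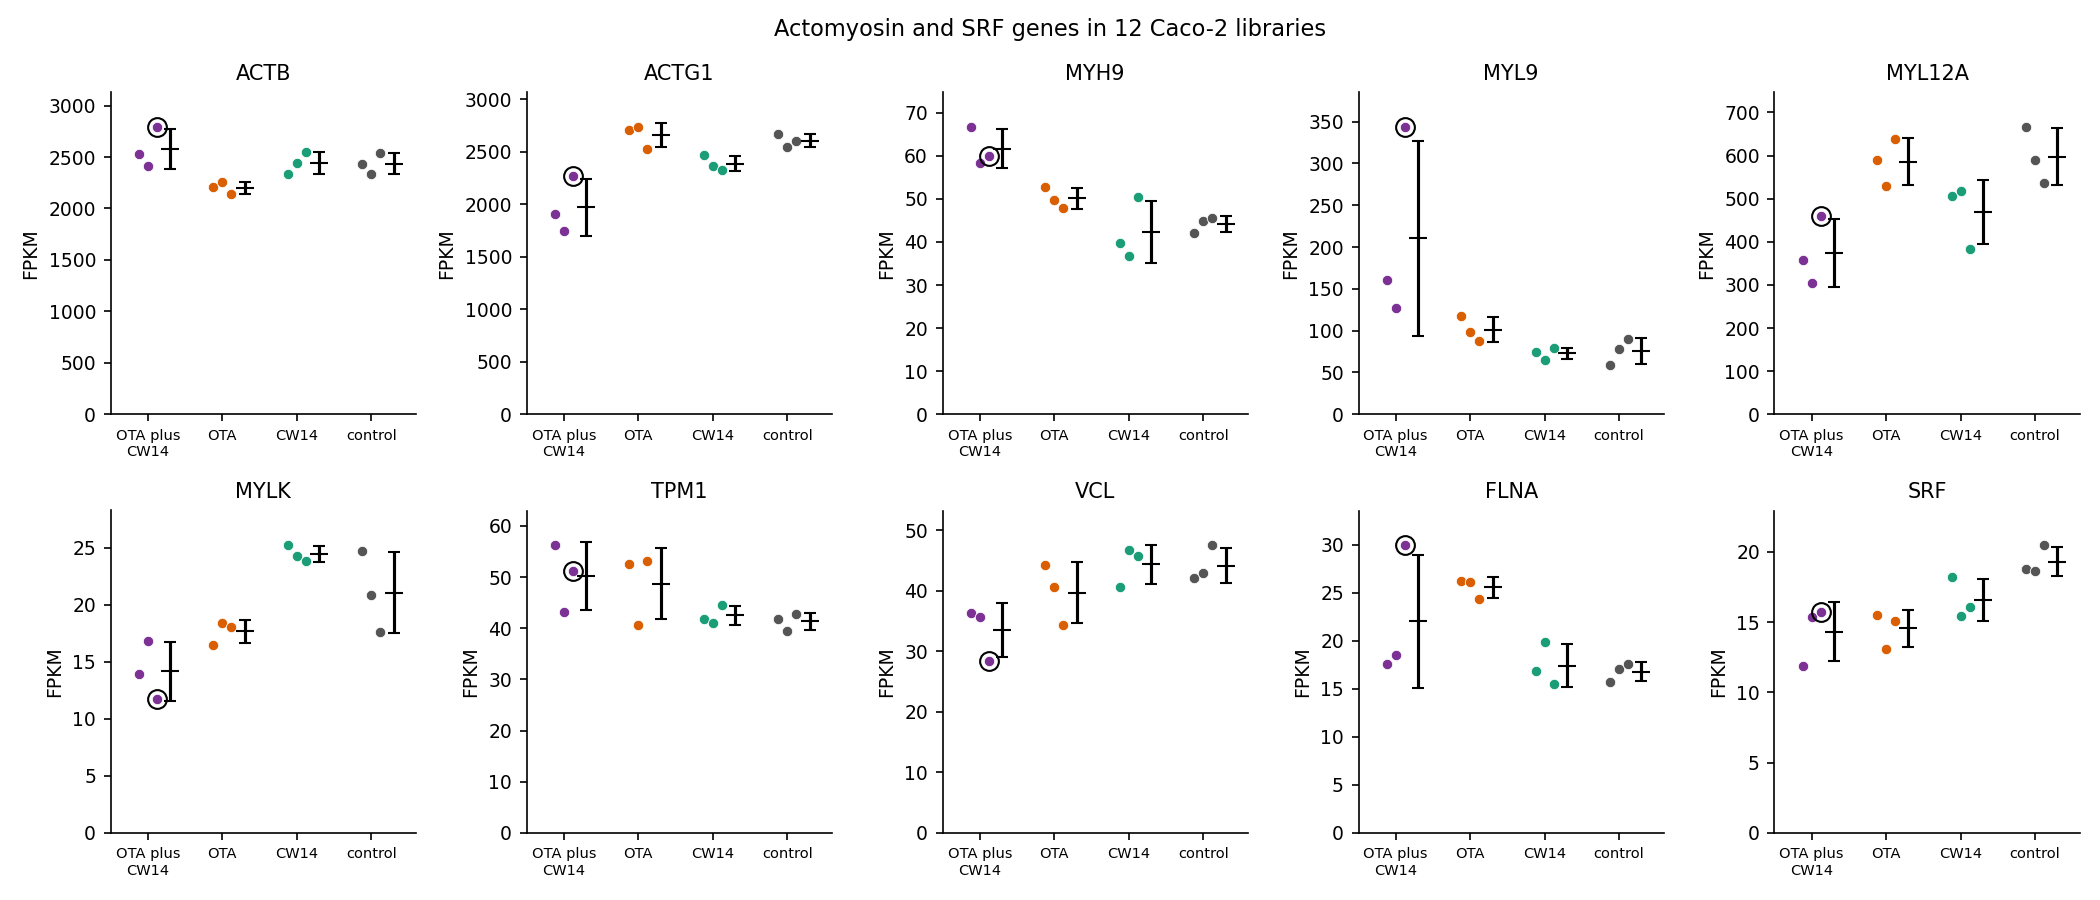
FPKM of the 10 members in each of the 12 libraries, with a panel per gene and groups from left to right as OTA plus CW14 (the combined group), OTA, CW14 and control. Points are libraries, the bar beside them is the mean with SD (n = 3), and the ringed point is combined replicate 3. The combined libraries lie below all control libraries for ACTG1, MYL12A, MYLK, VCL and SRF and above them for MYH9, MYL9 and TPM1. VCL and TPM1 were not called in that comparison. There 41.6% of all genes tested passed at an unadjusted limma p under 0.05, and the share lying apart was not counted.

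Calls below are from limma, a linear model on log2(FPKM + 1) fitted to all 12 libraries, at a Benjamini-Hochberg adjusted p under 0.05 over the 12928 genes. Log2 differences are on that scale, which understates the change of low genes. Of the 10 members, OTA against control called 1 higher and 0 lower, where 4.82% of all genes tested were called higher and 12.9% lower. At an unadjusted p under 0.05, 2 members passed in that comparison, FLNA and SRF, where 30.8% of all genes passed. CW14 against control called 0 members, and 0 passed at an unadjusted p under 0.05, where 0.217% of all genes were called higher, 0.147% lower and 6.64% passed unadjusted. The combined group against OTA called 0 members higher and 2 lower, against 7.79% and 8.22% of all genes. The combined group against control called 2 members higher and 4 lower, against 12.0% and 16.8% of all genes. The combined group against CW14 called 2 higher and 2 lower, against 14.8% and 17.5% of all genes. These comparisons share libraries, the control libraries or the combined libraries, so their values are given side by side and not as separate evidence. The F test over the 4 groups called 4 members, MYH9, MYL9, MYL12A and MYLK, where it called 37.5% of all genes.

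Over the 10 members the median log2 difference was -0.16 for the combined group against control, beside 0.02 over all genes tested, and -0.13 for the combined group against OTA, beside 0.03. Another scaling of the libraries changed the balance of calls over all genes. As deposited, OTA against control gave 623 higher and 1665 lower calls, and after centring each library on its median it gave 1153 and 1342, with the median of all genes shifted by 0.11 on the log2 scale. The combined group against OTA gave 1007 higher and 1063 lower calls as deposited and 774 and 1335 after median centring, and the combined group against control gave 1557 and 2172 as deposited and 2160 and 1777 after upper-quartile scaling. The interaction described below gave 239 higher and 192 lower calls as deposited and 171 and 262 after median centring. No called member changed sign under any of these scalings.

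**Figure D2:**
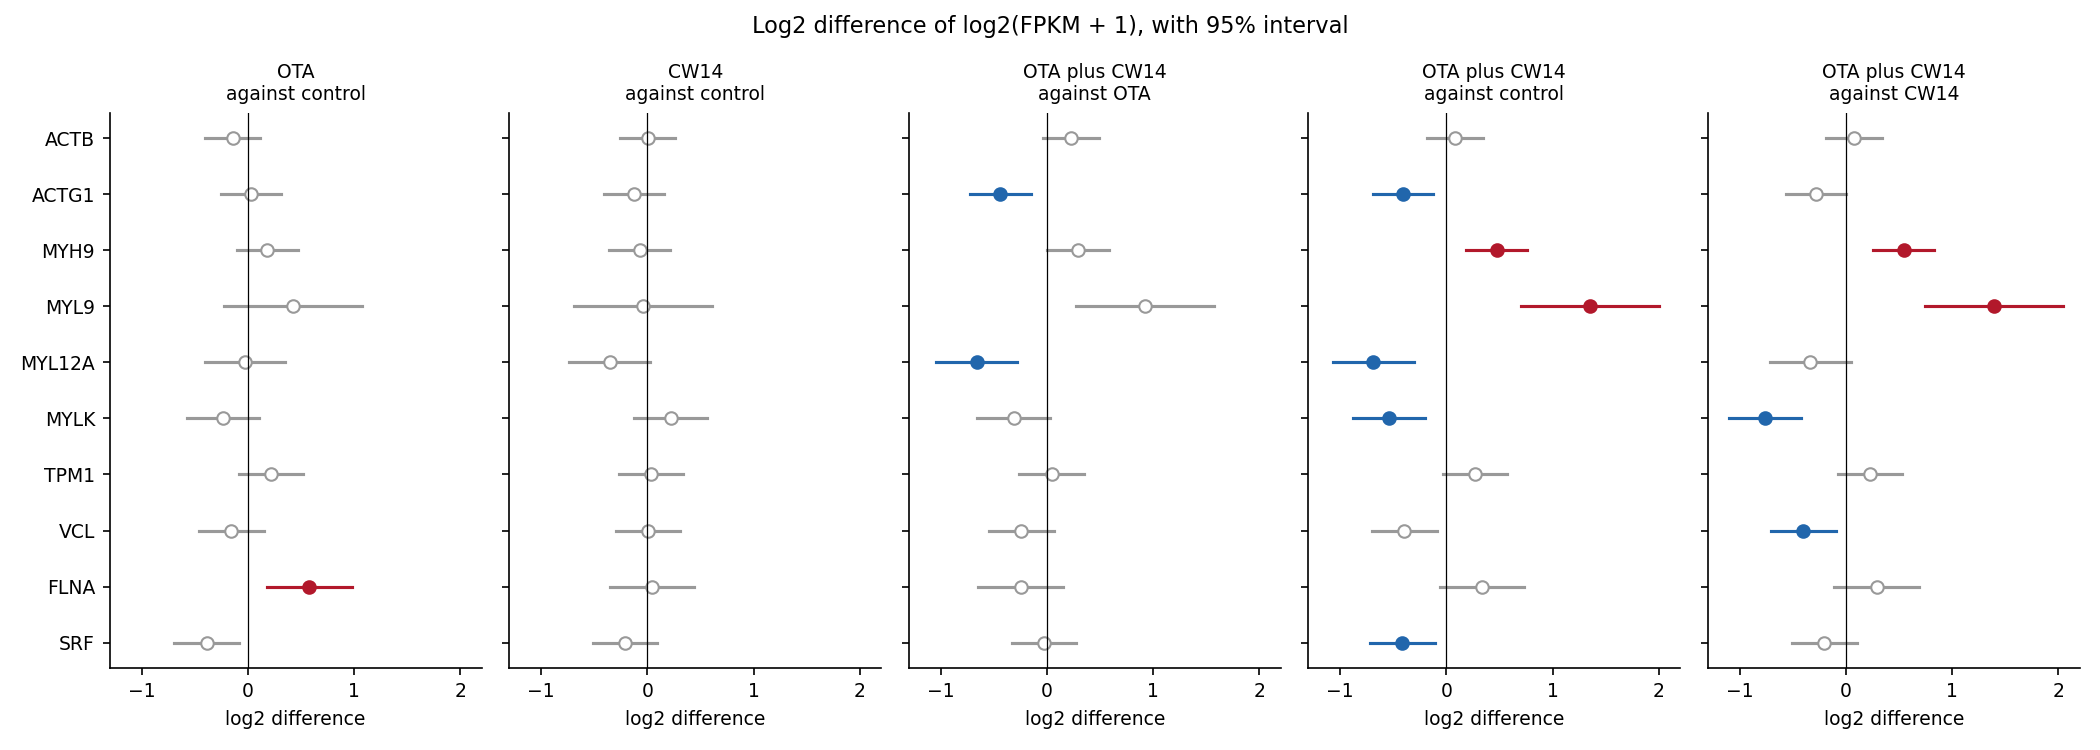
Log2 difference of log2(FPKM + 1) for each member in 5 comparisons, first group minus second, with the 95% interval of the limma fit. Filled red points were called higher, filled blue points were called lower and open grey points were not called. MYH9 and MYL9 were called higher, and MYLK lower, in the combined group against both control and CW14, and in the OTA comparison FLNA was the called member.

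Of the 2 cytoplasmic actins, ACTG1 fell in the combined group and ACTB was called in no comparison. These are the beta and gamma actins that form the filaments of non-muscle cells. ACTG1 (chromosome 17, deposited hg19 locus 79476995 to 79479892) had 1902, 1739 and 2268 FPKM in the combined libraries, 2703, 2738 and 2524 FPKM with OTA, 2463, 2364 and 2323 FPKM with CW14 and 2664, 2542 and 2601 FPKM in control. All 3 combined libraries were below every library of the other groups. The mean was 1969.9 ± 271 FPKM in the combined group and 2655 ± 115 FPKM with OTA (SD, n = 3 each), a log2 difference of -0.44 (SE 0.13, limma adjusted p = 0.0413). Against control, at 2602 ± 60.9 FPKM, the log2 difference was -0.41 (limma adjusted p = 0.0348). These became -0.54 (limma adjusted p = 0.00311) and -0.52 (limma adjusted p = 0.00160) without combined replicate 3, and against CW14 ACTG1 was then also called, at -0.39 (limma adjusted p = 0.00747), where with it the adjusted p was 0.114. In OTA against control the log2 difference of ACTG1 was 0.03, with a sign that turned under quantile normalization, and neither value was called. The combined against control call held in 5 of 19 alternative settings and the combined against OTA call in 4. Against OTA the call was lost on leaving out any 1 library other than combined replicate 3, and against control on leaving out any 1 other than combined replicate 3 and CW14 replicates 2 and 3, and over all 19 alternatives the limma adjusted p reached 0.213 and 0.187.

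ACTB (chromosome 7, deposited hg19 locus 5566777 to 5570232) had 2529, 2412 and 2796 FPKM in the combined libraries, 2204, 2261 and 2145 FPKM with OTA, 2333, 2439 and 2548 FPKM with CW14 and 2431, 2336 and 2537 FPKM in control. The combined and control libraries overlapped, while all 3 OTA libraries were below both. The log2 difference was 0.08 for the combined group against control (95% interval -0.18 to 0.34), -0.14 for OTA against control (-0.40 to 0.12) and 0.22 for the combined group against OTA (-0.04 to 0.49). None was called by limma, with adjusted p from 0.212 to 0.638.

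Because the actins moved unequally, the ratio of ACTB to ACTG1 was taken within each library, which removes the scaling of the library. This ratio and the next were chosen after the values had been seen. It was 1.33, 1.39 and 1.23 in the combined libraries, 0.816, 0.826 and 0.850 with OTA, 0.947, 1.03 and 1.10 with CW14 and 0.913, 0.919 and 0.975 in control. Each combined library was above every other library, and each OTA library was below every other library. The mean ratio in the combined group was 1.59 times that with OTA, with a two-sided exact permutation p of 0.1, the smallest that 3 against 3 can give (0.143 after Benjamini-Hochberg adjustment over 10 ratio tests). The summed FPKM of the actins was 4549 ± 468 in the combined group, 4858 ± 170.2 with OTA, 4823 ± 41.8 with CW14 and 5037 ± 139 in control (SD, n = 3 each). The coding sequences of ACTB and ACTG1, each 1128 bases, were 91.2% identical, and their longest identical run was 59 bases. No stretch of 150 bases, the length of a read, was shared between the transcripts compared.

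**Figure D3:**
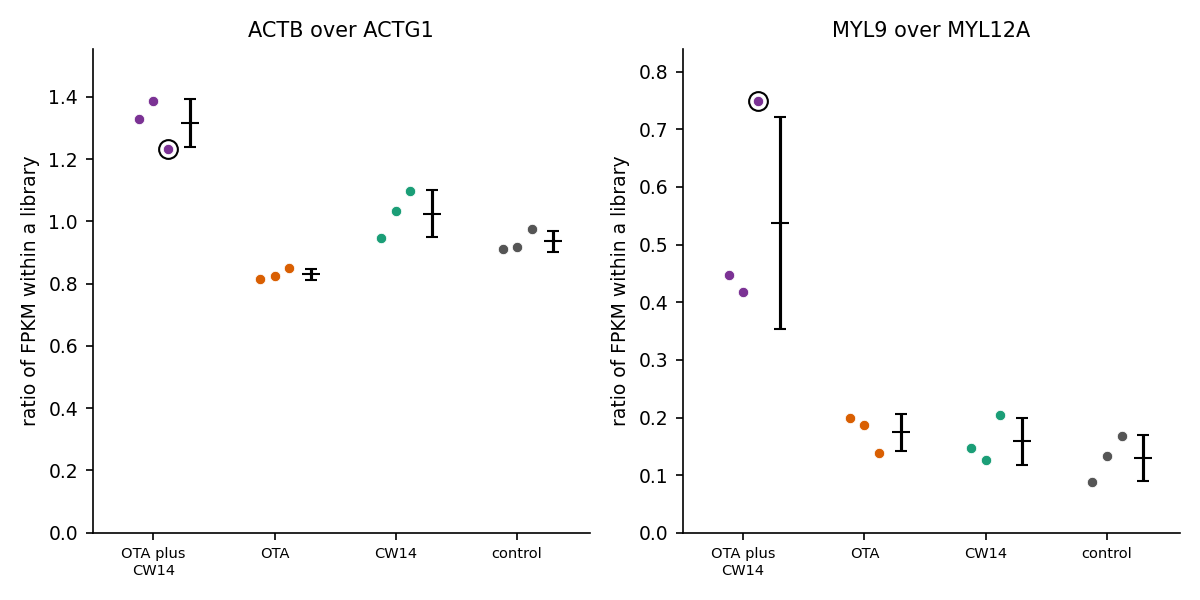
Ratio of FPKM within a library for ACTB over ACTG1 and for MYL9 over MYL12A, groups from left to right as OTA plus CW14, OTA, CW14 and control. Points are libraries, bars are the mean with SD (n = 3) and the ringed point is combined replicate 3. The combined libraries lie at 1.23 to 1.39 and 0.418 to 0.749, above all other libraries in both panels.

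The chains of non-muscle myosin II moved in opposite directions in the combined group against control: MYH9 and MYL9 rose and MYL12A fell. MYH9, the heavy chain of non-muscle myosin IIA (chromosome 22, deposited hg19 locus 36677321 to 36784112), had 66.8, 58.4 and 59.9 FPKM in the combined libraries, 52.8, 49.7 and 47.9 FPKM with OTA, 39.8, 36.6 and 50.4 FPKM with CW14 and 42.0, 44.8 and 45.5 FPKM in control. All 3 combined libraries were above every library of the other groups. The log2 difference was 0.47 against control (SE 0.13, limma adjusted p = 0.0192) and 0.54 against CW14 (limma adjusted p = 0.00919), and both calls held without combined replicate 3, at 0.49 and 0.56. The call against control was lost without control replicate 1, control replicate 2 or combined replicate 1, and over all 19 alternatives its limma adjusted p reached 0.0714. Against OTA it was 0.29 and was not called (limma adjusted p = 0.144), although the groups did not overlap. With OTA alone MYH9 was at 0.18 against control, not called (limma adjusted p = 0.388), with all OTA libraries above control.

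MYL9, a myosin regulatory light chain best known from smooth muscle and itself an SRF target, varied widely within the combined group. It had 160.2, 127 and 344 FPKM in the combined libraries, 117, 98.7 and 88.0 FPKM with OTA, 74.3, 65.1 and 78.7 FPKM with CW14 and 58.5, 78.6 and 90.1 FPKM in control. All combined libraries were above all others, and combined replicate 3 was the highest. The log2 difference was 1.35 against control (SE 0.30, limma adjusted p = 0.00626) and 1.39 against CW14 (limma adjusted p = 0.00485), and it was 0.92 against OTA, which missed the threshold (limma adjusted p = 0.0541). Leaving combined replicate 3 out made the same differences 0.93 (limma adjusted p = 0.00304), 0.97 (limma adjusted p = 0.00228) and 0.50 (limma adjusted p = 0.0719). Without combined replicate 2 the difference from OTA was called, at 1.22 (limma adjusted p = 0.0136), as it was under upper-quartile scaling and quantile normalization. With OTA alone MYL9 was at 0.43 against control, not called (limma adjusted p = 0.366), with overlapping libraries. The transcript GC content of MYL9 was 60.9%, above 85.7% of tested genes, and combined replicate 3 exceeded the mean of the other combined libraries by 1.26 on the log2 scale. The part of GC content in that value was not tested, and the other members are given with FLNA below. The deposited locus of MYL9 (chromosome 20, hg19 34894243 to 35201678) is the same as that of DLGAP4 and DLGAP4-AS1, since a deposited locus can span several genes. DLGAP4 averaged 38.8 ± 2.77 FPKM in the combined group and 37.9 ± 2.01 FPKM in control and was called in no comparison.

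MYL12A, the widely expressed regulatory light chain, had 359, 304 and 459 FPKM in the combined libraries, 589.6, 529 and 639 FPKM with OTA, 506, 518 and 384 FPKM with CW14 and 667, 590.1 and 536 FPKM in control. The combined libraries were below all OTA and control libraries and overlapped those with CW14. The log2 difference was -0.66 against OTA (SE 0.17, limma adjusted p = 0.0264) and -0.69 against control (limma adjusted p = 0.0125). Combined replicate 3 was the highest of its group, and without it the differences were -0.82 (limma adjusted p = 0.00438) and -0.85 (limma adjusted p = 0.00156). Against CW14 the difference was -0.33 (limma adjusted p = 0.159) with that library and -0.49 (limma adjusted p = 0.0251) without it. The call against OTA was lost without combined replicate 1 or any 1 of the OTA libraries, and the call against control without control replicate 1, and over all 19 alternatives the limma adjusted p reached 0.117 and 0.0655. Between OTA and control the log2 difference was -0.03, and its sign turned under 2 of 3 scalings with no call.

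MYL12A shares its deposited locus (chromosome 18, hg19 3247478 to 3278282) with its neighbour MYL12B, and the coding sequences of these light chains were 95.2% identical with a longest identical run of 77 bases. MYL12B averaged 811 ± 228 FPKM in the combined group, 1045 ± 31.1 FPKM with OTA, 1002 ± 168 FPKM with CW14 and 1262 ± 126 FPKM in control (SD, n = 3 each). It was called lower in the combined group against control, at -0.67 on the log2 scale (limma adjusted p = 0.0228). How the authors' counting divided reads between such near copies is not given in the sources used here, so the split between MYL12A and MYL12B is uncertain, although the transcripts compared shared 0 stretches of 150 bases.

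The ratio of MYL9 to MYL12A was 0.447, 0.418 and 0.749 in the combined libraries, 0.199, 0.186 and 0.138 with OTA, 0.147, 0.126 and 0.205 with CW14 and 0.0877, 0.133 and 0.168 in control. Every combined library was above every other library, with or without the highest of them. The mean ratio in the combined group was 3.09 times that with OTA and 4.15 times that in control, each at the smallest exact permutation p, 0.1 (two-sided, 0.143 adjusted over the 10 ratio tests). The coding sequences of MYL9 and MYL12A were 78.6% identical and their longest identical run was 26 bases.

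MYLK, the myosin light chain kinase that phosphorylates these chains and opens the paracellular path in enterocytes, fell in the combined group. It had 13.9, 16.8 and 11.7 FPKM in the combined libraries, 16.5, 18.4 and 18.1 FPKM with OTA, 25.3, 24.3 and 23.8 FPKM with CW14 and 24.7, 20.9 and 17.6 FPKM in control. The combined libraries were below all CW14 and control libraries and overlapped those with OTA. The log2 difference was -0.54 against control (SE 0.16, limma adjusted p = 0.0222) and -0.76 against CW14 (limma adjusted p = 0.00378), and without combined replicate 3 it was -0.42 (limma adjusted p = 0.0369) and -0.64 (limma adjusted p = 0.00503). Against OTA it was -0.31 (limma adjusted p = 0.181). The call against control was lost without control replicate 1, control replicate 2 or combined replicate 1 and under upper-quartile scaling, with limma adjusted p up to 0.119 over all 19 alternatives, and the call against CW14 held in each of them. The deposited locus of MYLK (chromosome 3, hg19 123304358 to 123603149) is shared with MYLK-AS1 and MYLK-AS2. MYLK-AS1 averaged 2.49 ± 1.55 FPKM in the combined group and 0.542 ± 0.512 FPKM in control and was not called (limma adjusted p = 0.0502). Whether its exons overlap those of MYLK was not examined. Strand information is not stated, so how reads from any stretch common to both were assigned is unknown.

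Among the filament and adhesion members, FLNA rose with OTA, VCL fell in the combined group against CW14 and TPM1 was called in no comparison. FLNA, filamin A, crosslinks actin filaments and ties them to membrane receptors (chromosome X, deposited hg19 locus 153576898 to 153603006). It had 17.6, 18.5 and 30.0 FPKM in the combined libraries, 26.2, 26.1 and 24.3 FPKM with OTA, 16.8, 19.9 and 15.5 FPKM with CW14 and 15.7, 17.1 and 17.6 FPKM in control. The OTA libraries lay close together and above every control and CW14 library, while combined replicates 1 and 2 lay near control and combined replicate 3 above all others. OTA averaged 25.5 ± 1.05 FPKM and control 16.8 ± 0.988 FPKM (SD, n = 3 each), a log2 difference of 0.58 (SE 0.18, limma adjusted p = 0.0471). That call sat near the threshold and held in 8 of 19 alternative settings, with limma adjusted p from 0.00151 to 0.133. It was lost on leaving out any 1 control, CW14 or OTA library, and its sign held in all 19.

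Between the combined group and OTA, FLNA was not called with all libraries (log2 difference -0.25, limma adjusted p = 0.367). Once combined replicate 3 was left out it was called lower, at -0.48 (limma adjusted p = 0.0153), and its interaction of OTA and CW14 was then called at -0.52 (limma adjusted p = 0.0491), against -0.29 with all libraries (limma adjusted p = 0.511). FLNA had a transcript GC content of 61.9%, and combined replicate 3 exceeded the mean of the other combined libraries by 0.70 on the log2 scale. For ACTB (62.1% GC), SRF (60.9%), ACTG1 (57.8%) and MYH9 (57.2%) that library differed by 0.179, 0.202, 0.318 and -0.0605. For MYLK (52.4%), TPM1 (50.2%), VCL (48.9%) and MYL12A (42.8%) it differed by -0.358, 0.0543, -0.335 and 0.474. The part of GC content in that library's values was not tested.

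VCL, vinculin, links actin to integrin adhesions and to the adherens junction (chromosome 10, deposited hg19 locus 75757870 to 75879914). It had 36.4, 35.7 and 28.4 FPKM in the combined libraries, 44.2, 40.6 and 34.3 FPKM with OTA, 40.7, 46.6 and 45.7 FPKM with CW14 and 42.1, 42.8 and 47.5 FPKM in control. The combined libraries were below all CW14 and control libraries. The log2 difference was -0.40 against CW14 (SE 0.14, limma adjusted p = 0.0449) and -0.40 against control, where it missed the threshold (limma adjusted p = 0.0512). Without combined replicate 3 neither was called, at -0.29 (limma adjusted p = 0.0746) and -0.28 (limma adjusted p = 0.0814). Leaving out any 1 control or CW14 library, or OTA replicate 1 or 2, also ended the call against CW14, and so did the 3 other scalings and the fit to the compared groups alone. It held in 5 of 19 alternatives, over which its limma adjusted p reached 0.147.

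TPM1, a tropomyosin that lies along the actin filament and governs access of myosin (chromosome 15, deposited hg19 locus 63334836 to 63364113), had 56.3, 43.2 and 51.2 FPKM in the combined libraries, 52.6, 40.6 and 53.1 FPKM with OTA, 41.9, 41.1 and 44.5 FPKM with CW14 and 41.8, 39.6 and 42.8 FPKM in control. The combined libraries were all above control, by as little as 43.2 against 42.8 FPKM. The log2 difference against control was 0.27 in the combined group (95% interval -0.04 to 0.57, limma adjusted p = 0.166) and 0.22 with OTA (-0.08 to 0.52, limma adjusted p = 0.306).

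SRF itself fell in the combined group against control but not against OTA. It (chromosome 6, deposited hg19 locus 43139031 to 43149244) had 11.9, 15.4 and 15.7 FPKM in the combined libraries, 15.5, 13.1 and 15.1 FPKM with OTA, 18.2, 15.4 and 16.1 FPKM with CW14 and 18.8, 18.6 and 20.5 FPKM in control. Every library of the 3 treated groups was below every control library. The log2 difference against control was -0.41 in the combined group (SE 0.14, limma adjusted p = 0.0439), -0.39 with OTA (limma adjusted p = 0.0792) and -0.21 with CW14 (limma adjusted p = 0.880). Between the combined group and OTA it was -0.03 (limma adjusted p = 0.910), with overlapping libraries. Without combined replicate 3 the combined difference from control was -0.48 (limma adjusted p = 0.0170) and the OTA difference from control, unchanged in size, was called (limma adjusted p = 0.0265). The combined against control call held in 4 of 19 alternative settings and in none of the 3 other scalings, with limma adjusted p up to 0.142. Among libraries left out 1 at a time it held only without combined replicate 2 or 3.

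The calls of the combined group depended on which libraries shared the estimate of spread. With limma fitted to the compared groups alone, 0 of the 6 member calls against control and 0 of the 2 against OTA were kept, while MYL9 and MYLK against CW14 were called in that fit and in every other alternative tried. Without control replicate 1 the calls against control numbered 1, and without control replicate 2 or combined replicate 1 they numbered 2.

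The interaction of OTA and CW14 asks whether the change made by OTA differed in the presence of CW14. By limma it called 0 members, where 1.85% of all genes were called higher and 1.49% lower, and 2 members passed at an unadjusted p under 0.05, where 24.7% of all genes passed. These were MYL9, at 0.96 on the log2 scale (95% interval 0.05 to 1.88, adjusted p = 0.183), and MYLK, at -0.53 (95% interval -1.01 to -0.05, adjusted p = 0.164). Leaving out combined replicate 3, it called ACTG1, at -0.42 (limma adjusted p = 0.0470), and FLNA.

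The genes whose pattern over the 12 libraries was most like that of FLNA were AGRN, RAB25 and ATP6AP1, with mean absolute differences of 0.0707 to 0.0770 on the log2 scale after centring, where FLNA itself deviated from its mean by 0.264. For ACTG1 they were RBM3, VAPA and RBCK1 (0.0526 to 0.0706, own deviation 0.149), and for MYL12A they were LMBRD1, MRPS36 and MYL12B (0.0854 to 0.101, own deviation 0.271).

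Genes that work with the members were read from 7 lists. Counts of called genes in these lists stand beside the following shares of all genes tested. In OTA against control 4.82% were called higher and 12.9% lower. For the combined group the shares were 7.79% and 8.22% against OTA, 12.0% and 16.8% against control, and 14.8% and 17.5% against CW14. The muscle actins ACTA1, ACTA2, ACTC1 and ACTG2 did not pass the filter. Of these ACTA1, the skeletal muscle actin, had 0.943, 0.901 and 2.88 FPKM in the combined libraries, 1.42, 1.38 and 0.786 FPKM with OTA, 0, 1.17 and 0 FPKM with CW14 and 0.152, 0 and 0.333 FPKM in control. The combined and OTA libraries were all above control, at levels that were not tested.

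Of the myosin II chains, 5 of 7 were tested. MYL6B, an essential light chain, rose with OTA against control (0.84, limma adjusted p = 0.0308) and in the combined group against control (1.00, limma adjusted p = 0.00966). It averaged 6.80 ± 1.19 FPKM in the combined group, 6.17 ± 2.26 FPKM with OTA and 2.90 ± 0.493 FPKM in control. MYH10, the heavy chain of non-muscle myosin IIB, also rose in the combined group against control (0.52, limma adjusted p = 0.0275). The heavy chain MYH14, named after its value was seen, was not called there (-0.02, limma adjusted p = 0.961). It had 27.0, 25.9 and 58.9 FPKM in the combined libraries and 38.1, 33.8 and 33.6 FPKM in control, so combined replicates 1 and 2 lay below control. MYL6B and MYH10 were at 1.10 and 0.64 without combined replicate 3, both called. Against OTA, limma called 0 of the 5 in the combined group, and 0 passed at an unadjusted p under 0.05, where 33.2% of all genes passed. The most abundant chains there were MYL12B and MYL6, an essential light chain, and MYL6 averaged 130.3 ± 81.8 FPKM in the combined group and 93.0 ± 7.46 FPKM with OTA. Leaving out combined replicate 3 gave 2 chains called lower.

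Of the SRF cofactors, 5 of 7 were tested. With OTA against control MKL1, the cofactor MRTF-A, fell (-1.02, limma adjusted p = 0.00805), as did ELK4, a ternary complex factor (-0.79, limma adjusted p = 0.0400, a call kept in 6 of 19 alternatives). MKL1 had 7.22, 3.64 and 7.02 FPKM in the combined libraries, 3.40, 3.51 and 2.71 FPKM with OTA, 5.01, 4.89 and 6.11 FPKM with CW14 and 6.14, 7.84 and 8.71 FPKM in control. All OTA libraries were below all others. Between the combined group and OTA limma called 0 of the 5, with 2 at an unadjusted p under 0.05, where 33.2% of all genes passed. MKL1 was at 0.68 (limma adjusted p = 0.0557) and ELK1, the most abundant of them, at -0.12 (limma adjusted p = 0.658). Against control ELK4 was the called cofactor in the combined group (-1.06, limma adjusted p = 0.00712). ELK4 was at -0.73 without combined replicate 3, still called, and the count against OTA was 1 higher.

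The remaining actin-binding SRF targets, 19 tested of 21, were mostly not called with OTA: 3 fell and 0 rose against control, with a median of -0.04. In that comparison 12.9% of all genes tested were called lower and 4.82% higher. FHL2, a LIM-domain protein of adhesions and the nucleus (-1.14, limma adjusted p = 4.45e-04), MICAL2, an actin oxidase (-0.99, limma adjusted p = 5.39e-04), and TES, testin, a focal adhesion protein (-0.61, limma adjusted p = 0.0329, not called under the 3 other scalings), were the 3. In the combined group against OTA 4 fell and 0 rose, FHL2 (-0.88), LIMA1, which stabilises actin bundles (-0.67), PDLIM5 (-0.59) and calponin 3, CNN3 (-0.52). FHL2 averaged 19.2 ± 3.45 FPKM in the combined group, 35.7 ± 1.48 FPKM with OTA and 80.0 ± 5.67 FPKM in control. Against control 1 rose and 6 fell in the combined group, led by FHL2 (-2.02), MICAL2 (-1.05), TES (-0.97) and LIMA1 (-0.87), and against CW14 1 rose and 5 fell. Without combined replicate 3 LIMA1, PDLIM5 and CNN3 were at -0.45, -0.48 and -0.36 against OTA, and TES and LIMA1 at -0.75 and -0.64 against control, all still called, as was FHL2, at -2.14 against control. The CNN3 call held in 10 of 19 alternatives. Of the 20 genes of this list with a promoter window 7 held a CArG box, FHL2 and TES among them, as did 3 of the 4 muscle actins and 2 of the 7 immediate early targets with a window. None was found for the 6 myosin II chains, 6 SRF cofactors, 24 actin assembly genes and 8 vinculin partners with a window, and base composition was not matched.

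The immediate early SRF targets, transcribed within minutes of a stimulus in resting cells, were lower wherever OTA was present. All 7 tested of 8 fell with OTA against control and in the combined group against control and against CW14, with medians of -2.90, -3.62 and -3.15 on the log2 scale. FOS averaged 12.2 ± 2.53 FPKM in the combined group, 53.7 ± 4.88 FPKM with OTA, 124 ± 33.9 FPKM with CW14 and 427 ± 64.7 FPKM in control (SD, n = 3 each). Its groups did not overlap, and it was lower in the combined group than with OTA (-2.07, limma adjusted p = 0.00158) and lower with CW14 than in control (-1.81, limma adjusted p = 0.00602). EGR1 averaged 21.1 ± 2.60 FPKM in the combined group, 21.9 ± 4.85 FPKM with OTA, 205 ± 12.4 FPKM with CW14 and 270.2 ± 18.4 FPKM in control, and it was not called between the combined group and OTA. With OTA against control EGR1 (-3.58), FOSB (-2.99), FOS (-2.96) and JUNB (-2.90) fell most, and in the combined group against control FOS (-5.03), JUNB (-3.72), FOSB (-3.68) and EGR1 (-3.62). Between the combined group and OTA 4 fell, FOS, JUNB (-0.82), FOSB (-0.69) and NR4A1 (-0.60). These counts were the same without combined replicate 3.

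**Figure D4:**
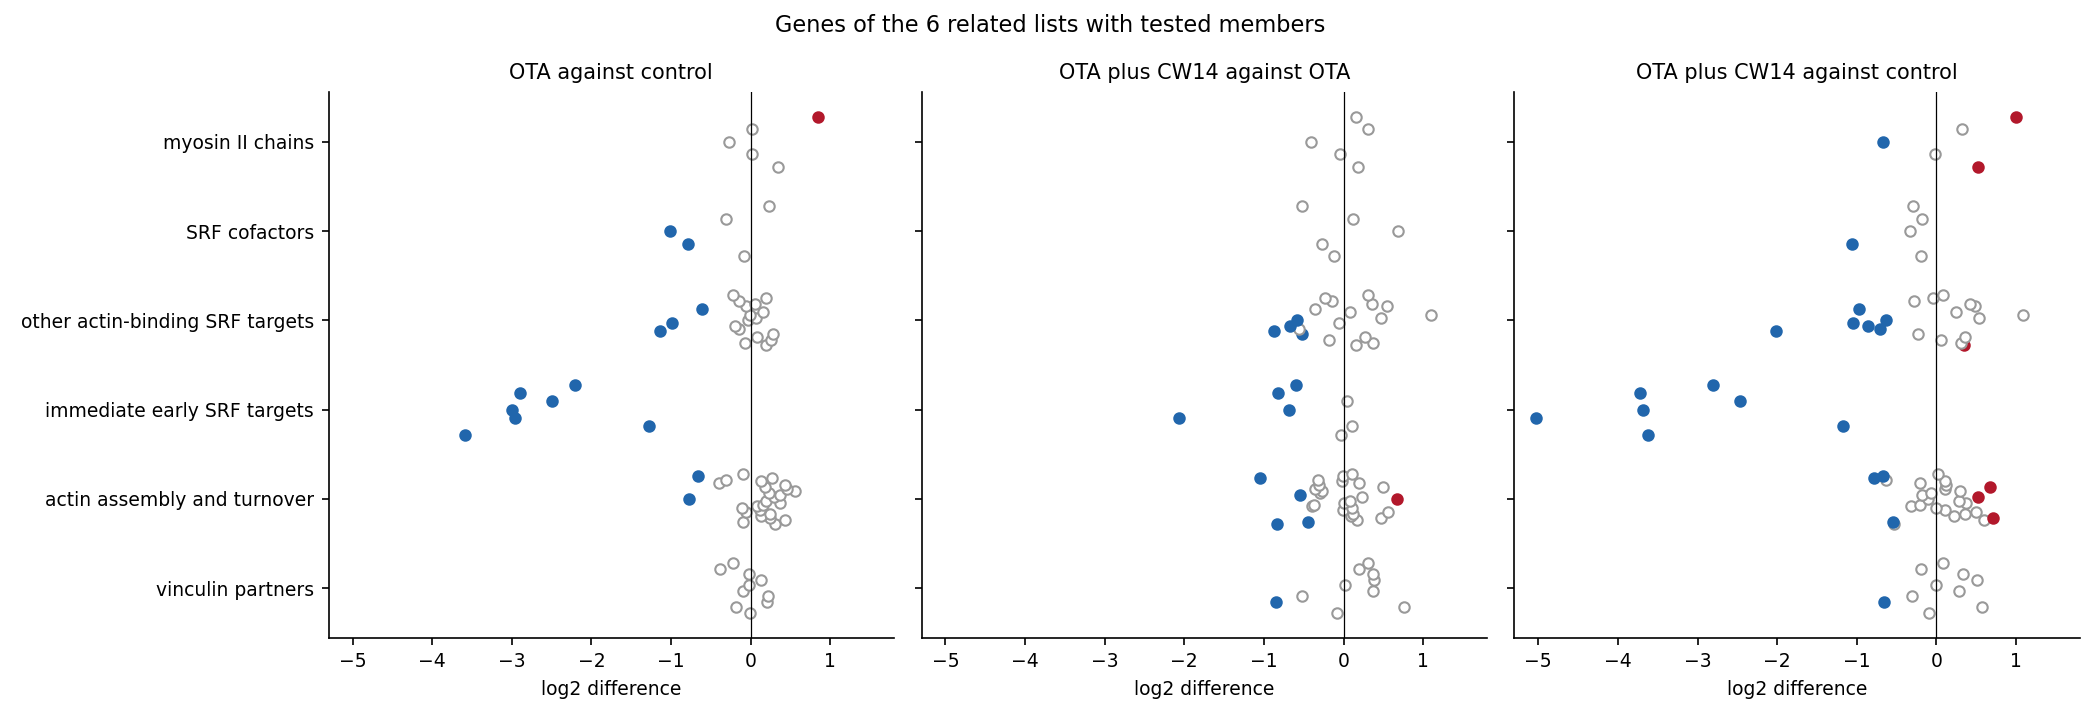
Log2 difference of log2(FPKM + 1), first group minus second, for the genes of the 6 lists with tested members, in OTA against control, OTA plus CW14 against OTA and OTA plus CW14 against control. Filled red points were called higher, filled blue points lower and open points were not called by limma. All 7 immediate early SRF targets lie left of 0 in both panels against control, while the actin assembly list has points on both sides of it in all 3.

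Among 27 genes of actin assembly and turnover, 2 fell with OTA against control, where 12.9% of all genes tested were called lower. These were CFL2, a cofilin that severs filaments (-0.78, limma adjusted p = 0.0244), and VASP, which elongates them (-0.66, limma adjusted p = 0.0184). Without combined replicate 3 the counts were 7 higher and 2 lower. In the combined group against OTA 1 rose and 4 fell: CFL2 rose (0.67, limma adjusted p = 0.0489, a call kept in 4 of 19 alternatives), and TWF1, twinfilin (-1.05), ACTR2 (-0.83), DSTN, destrin (-0.55), and ACTR3 (-0.45, named after its value was seen) fell. ACTR2 and ACTR3 are the actin-related subunits of the Arp2/3 complex. Leaving out combined replicate 3 made the counts against OTA 2 higher and 7 lower, with TWF1 at -0.67, ACTR2 at -0.47, DSTN at -0.42, ACTR3 at -0.40 and CFL2 at 0.85. The ACTR2 call held in 8 of 19 alternatives and under 1 of 3 other scalings. CFL2 averaged 9.45 ± 2.31 FPKM in the combined group, 5.45 ± 0.369 FPKM with OTA and 10.1 ± 1.35 FPKM in control. Against control 3 rose and 3 fell in the combined group, with TWF1 at -0.79, ARPC1B, an Arp2/3 subunit, at 0.71, PFN1, profilin, at 0.68 and VASP at -0.67. Leaving out combined replicate 3 gave 3 higher and 5 lower, with TWF1 at -0.40, ARPC1B at 0.54, PFN1 at 0.46 and VASP at -0.86. The TWF1 call against control held in 11 of 19 alternatives and under 1 of 3 other scalings. Against CW14, 5 rose and 1 fell.

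Of 10 vinculin partners, limma called 0 with OTA against control, and 0 passed at an unadjusted p under 0.05, where 30.8% of all genes passed. The most abundant was ITGB1, at 173 ± 9.28 FPKM with OTA and 151 ± 17.8 FPKM in control (0.20, limma adjusted p = 0.491). In the combined group against OTA 1 fell, ITGB1, integrin beta 1 (-0.85, limma adjusted p = 0.0119). ITGB1 had 114, 109 and 69.2 FPKM in the combined libraries, 163, 174 and 182 FPKM with OTA, 152, 139 and 121 FPKM with CW14 and 171, 141 and 140.5 FPKM in control. The combined libraries were below all others, and ITGB1 was also the gene called against control (-0.65, limma adjusted p = 0.0190). ITGB1 was at -0.63 against OTA and -0.42 against control without combined replicate 3, still called, and the call against control held under 1 of 3 other scalings. Against CW14, 1 rose and 1 fell in the combined group. The gene that rose was TLN1, talin 1, named after its value was seen (0.53, limma adjusted p = 0.0373), and it was not called without combined replicate 3 (limma adjusted p = 0.0871).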

How the data were processed

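RNA-seq libraries of 12 Caco-2 samples, in 4 groups of 3, were analysed from 1 deposited table of FPKM per gene and library. The authors deposited FPKM values, and the submitters' processing notes name cutadapt 1.10, TopHat2 2.0.13, Cufflinks 2.2.1, Cuffnorm, Cuffdiff and hg19 without roles or order. Neither the annotation nor how libraries were scaled against each other is given in the sources used here. No counts are in the table, so absolute depth is unknown and no count test or counting interval was used. Relative depth was estimated from the steps of low values shared between libraries.

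Genes averaging 1 FPKM or more were tested on log2(FPKM + 1) with limma 3.58.1 in R 4.3.3, with a trend in the prior variance, all groups in 1 fit, and Benjamini-Hochberg adjustment over 12928 genes in each of 6 comparisons and the F test. Adjusted p under 0.05 was called. The procedure was tested on simulated data with known changes in the OTA group and the same spread of a gene in all libraries. A library that stands apart, as combined replicate 3 does, was not simulated. Alternatives were a pseudocount of 0.1, no filter, 3 scalings, each library left out, a block on replicate number and a fit to the compared groups alone. Ratios of members were compared with exact permutation tests (SciPy 1.17.1), a choice made after their values were seen. Promoter windows and coding sequences were read from RefSeq and GENCODE transcripts with Biopython 1.88, taking the longest open reading frame of a transcript.

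All members are described. From the 7 lists (muscle actins, myosin II chains, SRF cofactors, other actin-binding SRF targets, immediate early SRF targets, actin assembly and turnover, vinculin partners), up to 4 called genes with the largest absolute log2 difference are named in a comparison or, where none is called, up to 2 with the highest mean FPKM. Likeness of pattern is the smallest mean absolute difference of centred log2 values, given as 3 genes for each member called in OTA against control or the combined group against OTA. The members and lists were chosen with earlier results of these data known, and some related genes are not reported here. The deposited loci do not say whether starts count from 0 or 1.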

Additional observations from a re-analysis of the deposited data

How the results depend on the processing

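Of 60 pairs of member and comparison, 13 were called, and 2 of these (MYL9 and MYLK in the combined group against CW14) were called in every alternative tried. Over 1130 alternative values none reversed a called direction, 87 lost a call and 11 gained one, and 35 changed sign where neither value was called. With only the compared groups fitted, member calls numbered 2 for OTA against control (1 as reported), 0 for the combined group against OTA (2), 0 for it against control (6) and 2 for it against CW14 (4). With no filter on low values they numbered 0 for OTA against control and 1 for the combined group against OTA. On leaving out 1 library at a time member calls ranged from 0 to 2 for OTA against control, 0 to 0 for CW14 against control, for the combined group 0 to 3 when set against OTA, 1 to 6 when set against control, 3 to 5 when set against CW14, 0 to 2 for the interaction and 3 to 7 for the F test. Samples with the same replicate number did not deviate together (18 pairs, correlations from -0.15 to 0.15, with 0 of 12 libraries closest to its own number). The numbers thus gave no sign of pairing, although with 3 libraries a group a small shared effect could go unseen. With the replicate block, member calls numbered 0 for OTA against control, and for the combined group 1 when set against OTA, 4 when set against control and 3 when set against CW14, with 0 for the interaction and 4 for the F test. Over all genes, fitting only the compared groups gave 4621 calls for OTA against control (2288 as reported), and for the combined group 70 when set against OTA (2070), 1596 when set against control (3729) and 1521 when set against CW14 (4179). With no filter, CW14 against control gave 25 calls (47) and the interaction 235 (431), and the interaction gave 286 with the replicate block. With 1 library left out the counts ran from 1299 to 4364 for OTA against control, 4 to 123 for CW14 against control, 653 to 3388 for the combined group against OTA and 17 to 1595 for the interaction, and the lowest were 2265 for the combined group against control and 2780 against CW14. Of 791 alternative list counts 682 were within 1.5 times the reported count and 109 were not. The 682 include every count of the muscle actins, of which 0 were tested, so that those counts could only be 0. The causes of these shifts were not tested.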
